A study of Mus musculus with 20 samples.

Results

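Mitochondrial ribosomal protein genes encode the proteins of the mitoribosome, the ribosome inside mitochondria. They were taken as all genes whose RefSeq symbol is Mrpl or Mrps followed by a digit, with pseudogenes left out, which gave 78 genes of the 20226 tested. By name 49 belong to the large subunit (Mrpl) and 29 to the small subunit (Mrps). All 78 genes so named in RefSeq had a probe on the array and passed the filter on dim probes, 50 with 1 probe and 28 with more than 1, on 114 probes in all. In 73 of them the probe used was measured and well above background on all 20 arrays. In Mrpl13, Mrpl30, Mrpl40, Mrpl51 and Mrps15 it was well above background on the 19 arrays on which it was measured.

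Mitochondria hold a small genome that codes for core subunits of the respiratory chain and the ATP synthase, and the mitoribosome translates it. Its RNAs come from that genome, whereas all its proteins are made from nuclear genes in the cytosol and imported. Compared with the bacterial ribosome, to which it is related, it has gained many proteins with no bacterial relative, so its proteins fall into a bacterial type and a mitochondria-specific type. In fibroblasts, as in most dividing cells, these genes are active throughout.

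RNA of mouse embryonic fibroblasts (MEFs), cells taken from embryos into culture, was hybridised to Agilent one-colour arrays after the cells had spent 24 hours in culture with mouse serum. The serum came from female C3H/HeN mice, an inbred strain, in 4 groups of 5 arrays. The 10-day set compares serum of mice given 4 Gy with that of non-irradiated controls (0 Gy), and the 20-day set does so for 8 Gy. The irradiation is labelled L/MDR, which the labels do not expand, and what the 10 and 20 days count is not stated beyond that the mice were irradiated. By label all 4 groups are MEFs cultured with serum, but the labels do not say whether both sets used cells of the same preparation, and the cells of the sets may differ. Dose and day change together between the irradiated groups. The genotype of the MEFs and the age of the mice are not given in the labels. Whether replicates are separate cultures, or sera of separate mice, is not given either; p-values therefore rest on array-to-array spread alone, and that spread may be technical.

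The signal is the log2 of the processed intensity minus the 75th percentile of its array, and every level and change below is on this scale. Of 41174 probes 56.8% to 67.2% per array were well above background, and no spot was saturated. The sets were scanned on 2 different days and share no slide, so set, slide and scan day cannot be told apart between them. In the 20-day set each of the 4 slides holds 1 group: control arrays 1 to 3 lie on slide 4, control arrays 4 and 5 on slide 5, 8 Gy arrays 1 to 3 on slide 6 and 8 Gy arrays 4 and 5 on slide 7. The 20-day control arrays stood apart: intensities of repeated spots had a coefficient of variation of 9.69% to 24.8% there and of 3.91% to 8.23% on the other 15 arrays. Of 14 fibroblast markers, all 14 were well above background on all arrays in each group. Of 14 macrophage markers 13 were tested, and all 13 were higher in the 20-day than in the 10-day control group, with a median log2 difference of 4.24. Their summed linear signal was 2.34 to 3.77 times the 75th percentile on the arrays of the 10-day set and 70.6 to 97.6 times on those of the 20-day set, and 12 of the 13 were well above background on all arrays in each 10-day group, all 13 in each 20-day group.

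Neighbouring genes that start on opposite strands close together can share a regulatory stretch, and 3 such stretches beside members that the results below turn on are shown here. RefSeq promoters (GRCm38.p6) were found for 69 of the 78 genes, and 26 of these 69 (37.7%) had another gene's start on the opposite strand within 1000 bases upstream, against 18.4% of 10311 tested genes with a promoter entry. The stretches run 5′ to 3′ towards the mitochondrial ribosomal protein gene and end at the base before its start. They lie at chr3:32736756-32737005 (minus strand, the 250 bases nearest Mrpl47 of the 301 between it and Ndufb5), chr13:14613038-14613241 (minus strand, the 204 bases between Mrpl32 and Psma2) and chr5:100798662-100798758 (plus strand, the 97 bases between Mrps18c and Helq). These lengths run between the genes' outer bounds; by the starts in the promoter table, which the distances given further on use, Ndufb5 lies 308, Psma2 205 and Helq 159 bases away. Capitals mark a run of letters bound by NRF1, a factor known for driving nuclear genes of mitochondrial function; the stretch beside Mrpl32 holds 1, and the others 0.
Mrpl47: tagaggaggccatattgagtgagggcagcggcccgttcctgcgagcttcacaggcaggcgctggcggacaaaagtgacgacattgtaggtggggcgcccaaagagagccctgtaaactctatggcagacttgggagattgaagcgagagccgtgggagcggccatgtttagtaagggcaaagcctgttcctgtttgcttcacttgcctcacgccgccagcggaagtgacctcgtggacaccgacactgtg
Mrpl32: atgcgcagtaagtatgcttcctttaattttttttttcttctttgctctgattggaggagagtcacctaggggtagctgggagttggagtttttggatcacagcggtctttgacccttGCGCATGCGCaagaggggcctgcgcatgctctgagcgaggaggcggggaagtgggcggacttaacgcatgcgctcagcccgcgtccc
Mrps18c: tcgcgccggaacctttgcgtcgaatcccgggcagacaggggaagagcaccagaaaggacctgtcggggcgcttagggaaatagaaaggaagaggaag

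Searched on both strands of the 250 bases before the start, the NRF1 run (GCGC, any base, then TGCGC) stood before 10 of the 69 members (14.5%) and before 8.64% of tested genes. The ETS run CCGGAAG, to which GABP among other factors binds, stood before 18 (26.1%) and before 14.4%. At least 1 of both was found before 27 members (39.1%) and before 21.5% of tested genes, and the ends of both runs can share a letter. GGGCGG, the GC box, was found before 47.8% of members and 61.7% of tested genes, at a median GC content of 58.4% and 59.6%. CCAAT stood before 36.2% and 40.4%, the E-box CACGTG before 7.25% and 9.72%, and TATAAA before 7.25% and 9.39%. Members with the NRF1 run had a median change of -0.39 with 8 Gy serum (6 of 10 lower) and those without of -0.34 (37 of 59 lower). For the ETS run the medians were -0.36 (10 of 18) and -0.36 (33 of 51). A match describes the letters only.

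With serum of mice given 8 Gy, 48 of the 78 genes were lower than with control serum of the same set and 2 were higher. Across all genes tested 28.8% were lower and 17.3% higher (limma, Benjamini-Hochberg adjusted p under 0.05 over 20226 genes). The median log2 change of the 78 genes was -0.35, with quartiles at -0.59 and -0.15, and that of all genes was -0.09. By the probe used for each gene none fell by as much as 2-fold, since the largest change was 1.95-fold (Mrpl21). Another tested probe of Mrpl42 fell further, by 1.05 on the log2 scale, while its used probe had a change of -0.28. In 33 of 78 all 5 irradiated arrays lay below all 5 control arrays and in 1 all lay above, against 19% and 9.11% of all genes. Under quantile normalization 31 were lower and 5 higher, and under cyclic loess 32 and 6, with smaller medians of -0.14 and -0.16. Of all 20226 genes 5001 were lower and 3548 higher under quantile normalization (median -0.06), and 4813 and 3868 under cyclic loess (-0.04). Leaving out 1 of the 4 slides gave 42 to 51 members lower and 0 to 6 higher. Of all genes it gave 4366 to 6183 lower and 2082 to 3915 higher.

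The plot of medians by array shows the level of the whole family on each array as a deviation from the mean of the 4 group means. These medians were -0.38, -0.36, -0.30, -0.38 and -0.45 with control serum in the 10-day set and -0.27, -0.41, -0.42, -0.39 and -0.40 with 4 Gy serum. They were 0.64, 0.66, 0.62, 0.60 and 0.55 with control serum in the 20-day set and 0.20, 0.31, 0.23, 0.10 and 0.16 with 8 Gy serum. The 10-day groups overlapped each other, and both 20-day groups lay apart from them and from one another. The means were -0.37 ± 0.05, -0.38 ± 0.06, 0.61 ± 0.04 and 0.20 ± 0.08 (SD, n = 5 each, in the same order). Taken slide by slide, the 8 Gy arrays lay below the controls in each of the 4 pairs of a control and an irradiated slide, with median differences of -0.31, -0.34, -0.44 and -0.43 and with 60 to 69 of 78 genes negative. Medians of all genes in these pairs were -0.09, -0.09, -0.12 and -0.11, and how many of all genes were negative was not counted. The pairs share slides and are not independent of each other.

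**Figure D1:**
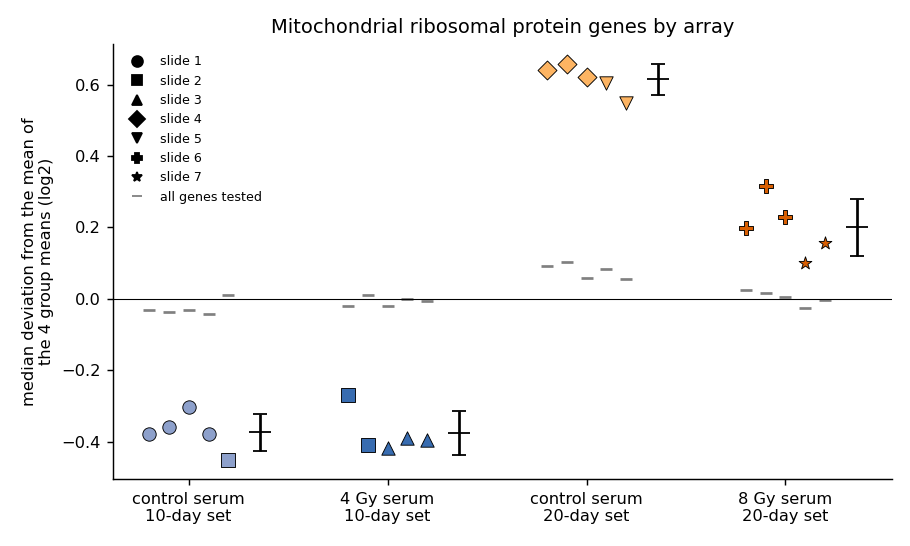
Median over the 78 mitochondrial ribosomal protein genes of each gene's log2 deviation from the mean of its 4 group means, 1 point per array, with marker shape for the slide, black bars for the mean and SD (n = 5) and grey dashes for the median over all genes tested. The 10-day arrays lie between -0.45 and -0.27, the 20-day control arrays between 0.55 and 0.66 and the 8 Gy arrays between 0.10 and 0.31.

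The new chain leaves the large subunit through its exit tunnel. Mrpl22 (chr11:58170043-58179580), a protein of the tunnel wall, had signals of 2.80, 2.93, 2.89, 2.93 and 2.78 with control serum and of 2.06, 2.10, 2.02, 1.89 and 2.06 with 8 Gy serum. All irradiated arrays were below all controls, and the gene fell by 0.84 on the log2 scale (SE 0.06, limma adjusted p = 1.1e-08). Mrpl47 (chr3:32727497-32736755), which sits at the tunnel's mouth, had 1.57, 1.75, 1.65, 1.39 and 1.43 with control serum and 0.74, 0.93, 0.74, 0.77 and 0.86 with 8 Gy serum, and fell by 0.75 (SE 0.07, limma adjusted p = 3.03e-07). Again the groups did not overlap.

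Mrpl21 (chr19:3282997-3292837), a bacterial-type protein of the large subunit, had the largest fall of the family by the probes used. Its control arrays read 3.06, 3.14, 2.78, 2.81 and 2.91 and its 8 Gy arrays 2.06, 2.16, 1.93, 1.82 and 1.93. That is a fall of 0.96 (SE 0.09, limma adjusted p = 2.11e-07), with the highest irradiated array far below the lowest control array. Mrpl32 (chr13:14610301-14613037) encodes a protein that is cut by the inner-membrane protease m-AAA before it joins the ribosome. It read 2.93, 2.94, 2.78, 2.97 and 3.06 with control serum and 2.18, 2.34, 2.18, 2.09 and 2.19 with 8 Gy serum, and fell by 0.74 (SE 0.07, limma adjusted p = 4.44e-07).

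Among the other members of the large subunit, Mrpl49, which has no bacterial relative, fell by 0.74 (SE 0.09) and Mrpl18 by 0.71 (SE 0.13). Mrpl15 fell by 0.72 (SE 0.15). Its control arrays read 0.33, 1.30, 1.09, 1.31 and 1.50 against 0.32 to 0.44 with 8 Gy serum, so that control array 1 lay within the irradiated range while the other controls did not. The stalk recruits translation factors to the ribosome. Of its proteins Mrpl12, which is also known to bind the mitochondrial RNA polymerase, fell by 0.48 (SE 0.10) and Mrpl11 by 0.34 (SE 0.10). Both kept their direction with 8 Gy serum in every scaling, but Mrpl12 did not pass under quantile normalization (-0.21) or normexp (-0.17), nor without slide 4 (-0.23), and Mrpl11 did not under quantile normalization (-0.08), cyclic loess (-0.10) or normexp (-0.36), without slide 7 (-0.29), with slide as a random block (-0.35), in the fit of only the groups compared or in the deposited values (limma adjusted p 0.0539 and 0.0625). Mrpl10, at the stalk's base, had a change of 0.15 (SE 0.12, limma adjusted p = 0.326) and read 1.62 to 2.25 with control serum and 1.83 to 2.30 with 8 Gy serum, so that the groups overlapped in part.

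Mrpl45, which anchors the ribosome to the inner membrane, fell by 0.36 (SE 0.13). It no longer passed the threshold when control array 3, 4 or 5 or irradiated array 2 or 3 was left out (limma adjusted p 0.0508 to 0.0809) or slide 5 or 6, under quantile, cyclic loess and normexp, with slide as a random block, in the fit of only the groups compared and in the deposited values. Mrpl58, a peptidyl-tRNA hydrolase that rescues stalled ribosomes and is built into the large subunit, fell by 0.45 (SE 0.11), and missed the threshold under quantile normalization (-0.23) and without slide 4 (-0.29). Mrpl44, which has the fold of an RNase III, had a change of -0.07 (SE 0.12) and Mrpl37 one of 0.16 (SE 0.10). Mrpl44 passed without slide 4 (-0.29) and Mrpl37 under cyclic loess (0.26). Mrps30 is named for the small subunit but is a protein of the large one. Its signals scattered from 1.70 to 2.92 with control serum and from 1.94 to 2.83 with 8 Gy serum, and its change was 0.07 (SE 0.20).

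In the small subunit Mrps21 (chr3:95862634-95871514) read 2.60, 2.76, 2.64, 2.69 and 2.61 with control serum and 1.88, 2.17, 2.04, 1.91 and 1.71 with 8 Gy serum. It fell by 0.71 (SE 0.07, limma adjusted p = 6.77e-07), with no overlap between the groups. Mrps12, a protein of the decoding centre, read 2.68, 2.67, 2.56, 2.43 and 2.35 against 2.09, 2.22, 2.22, 2.13 and 1.93. Its groups did not overlap, and it fell by 0.42 (SE 0.08, limma adjusted p = 0.000263).

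Mammals have 3 relatives of the bacterial protein S18, and their genes differed in how steadily they could be read. Mrps18c, the form at the bacterial protein's own place in the small subunit, read 3.28, 3.32, 3.39, 3.44 and 3.27 with control serum and 2.76, 2.81, 2.77, 2.67 and 2.77 with 8 Gy serum. Its groups lay well apart, and it fell by 0.58 (SE 0.06, limma adjusted p = 4.22e-07). Another probe of Mrps18c, with a mean signal of 2.35 against 2.43 for the one used, had a change of only -0.28. It did not pass the threshold (limma adjusted p = 0.243 over all tested probes). Mrps18b, which holds a second place in the small subunit, fell by 0.54 (SE 0.12, limma adjusted p = 0.000857), although control array 2 at -0.25 lay close above the irradiated arrays (-0.64 to -0.31). Under normexp its change was -0.16 and not past the threshold (limma adjusted p = 0.282).

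Mrps18a, built into the large subunit, read 2.27, 1.70 and 1.41 on the control slide that holds arrays 1 to 3 and 3.49 and 3.30 on the other. The 8 Gy arrays, at 2.62 to 2.84, lay between these slides, and the change was 0.31 (SE 0.28, limma adjusted p = 0.386). Without the first control slide it was -0.65, and without the second 0.95, so its direction depends on which slide is kept.

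Mrpl4 and Mrps27 were the members that rose with 8 Gy serum. Mrpl4, another protein of the tunnel wall, read 0.96, 0.17, 1.04, 1.38 and 1.36 with control serum and 1.48, 1.53, 1.50, 1.45 and 1.44 with 8 Gy serum. All irradiated arrays were above all controls, and it rose by 0.50 (SE 0.16, limma adjusted p = 0.014). Without the slide of control arrays 1 to 3 the change was 0.11 and did not pass the threshold. Mrps27, a small-subunit protein with RNA-binding PPR repeats, read -0.98, -0.77, -0.62, -0.57 and -0.69 against -0.33, -0.26, -0.41, -0.58 and -0.53. The groups overlap at their edges, and it rose by 0.31 (SE 0.09, limma adjusted p = 0.010). Without the same slide it was 0.21 and not past the threshold. Both also missed it without slide 6 (0.46 and 0.17), under array median scaling (0.35 and 0.17) and with slide as a random block, where 39 members were lower and 0 higher (of all genes 3791 and 2120). Mrpl4 missed it as well in the fit of only the groups compared and in the deposited values (limma adjusted p 0.0811 and 0.0808).

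**Figure D2:**
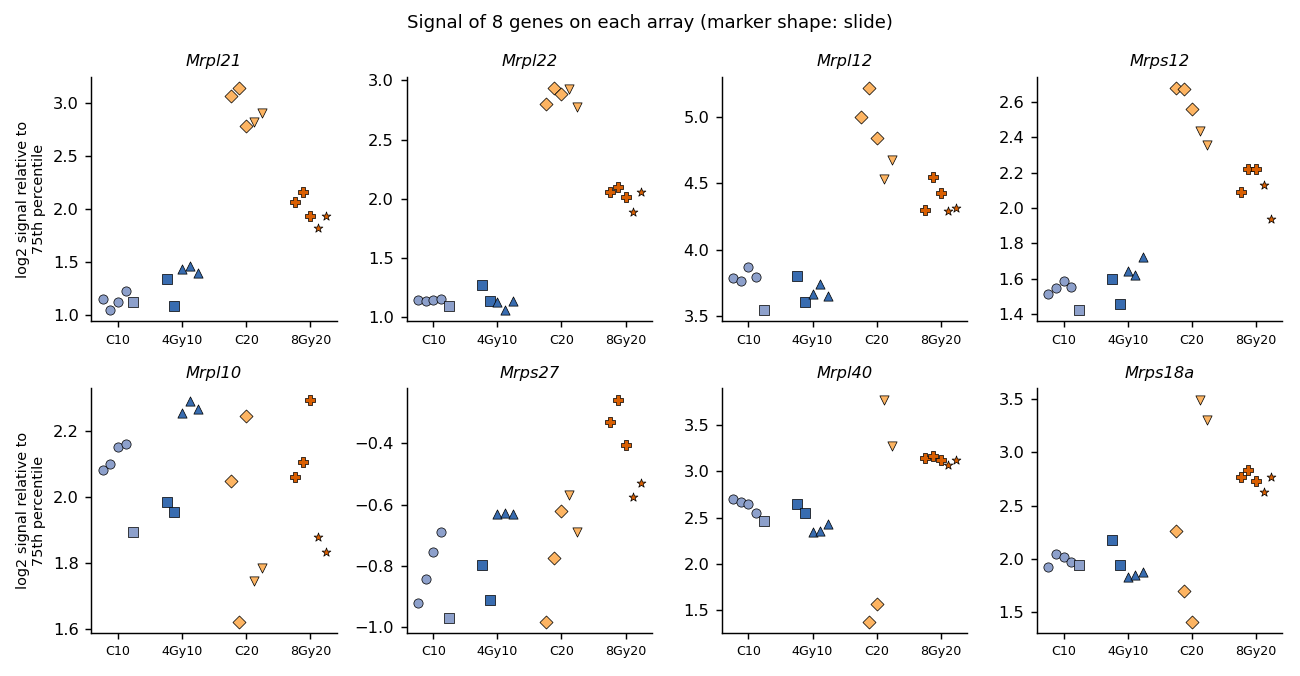
Log2 signal minus that array's 75th percentile for 8 of the 78 genes on each of the 20 arrays, by group (C10 and C20, control serum of the 10-day and 20-day sets; 4Gy10 and 8Gy20, serum of irradiated mice), with marker shape for the slide; each gene has its own axis. In Mrpl21, Mrpl22 and Mrps12 all 8 Gy arrays lie below all 20-day control arrays and above the 10-day arrays, whereas Mrpl40 and Mrps18a split by slide within the 20-day control group.

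Grouped by origin, the bacterial-type proteins of the large subunit counted 20 lower and 1 higher of 29, with a median of -0.48, and those of the small subunit 11 lower and 0 higher of 16, with a median of -0.42. Among mitochondria-specific proteins 11 of 22 in the large subunit were lower and 0 higher (median -0.28), and 5 of 10 in the small subunit were lower and 1 higher (median -0.26). The difference between both origins was not tested. Further proteins of the mitoribosome carry other names. Of Dap3, Ptcd3, Chchd1, Aurkaip1 and Gadd45gip1, all 5 were lower, with a median of -0.50, led by Chchd1 (fell by 0.50, SE 0.07) and Aurkaip1 (fell by 0.58, SE 0.10). Mrps36 fell by 0.64 (SE 0.09) by its used probe. Its other probe had the opposite sign, with a change of 0.72 that did not pass the threshold (limma adjusted p = 0.0742 over all tested probes). Despite its name, Mrps36 is now known as a part of the 2-oxoglutarate dehydrogenase complex and not of the ribosome.

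A gene with more than 1 probe gives a second reading. The calls in this paragraph come from a separate fit over all 26233 tested probes, so they can differ from the calls by gene near the threshold. With 8 Gy serum the used probes of Mrpl17 and Mrps7 passed narrowly in it (limma adjusted p 0.0495 each) and not in the fit by gene. Of 21 other probes of genes called with 8 Gy serum, 19 had the same sign and 13 were also past the threshold in it, while 1 was called in the opposite one. That was a probe of Mrps25, whose used probe fell by 0.32 and whose other probe had a change of 0.57. Among genes whose used probe was not called, another probe of Mrpl38 (0.52), Mrpl44 (0.80), Mrps5 (0.47) and Mrps9 (0.94) was called higher. Called lower was another probe of Mrpl40 (-0.30), Mrpl42 (-1.05) and Mrps33 (-0.27). Between control groups 26 of 32 other probes of called genes had the same sign, 23 also passed in it and 4 were called opposite. For the difference of responses 12 of 13 had the same sign, with 6 and 0. Mrpl40 illustrates a single unsteady probe. The brightest one read 1.38 and 1.57 on the first control slide (array 1 was not measured there) and 3.77 and 3.28 on the second, which gave a change of 0.63 (SE 0.34), whereas its other 2 probes gave -0.30 and -0.17.

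Genes were also set against others of equal signal, because brighter genes shifted more. Ranked in 10 equal parts by mean signal, 69 of the 78 genes lay in the 3 brightest parts. There 60.9% of members were lower with 8 Gy serum, against 44.5% of the 6068 genes in those parts, and 1.45% were higher, against 10% of genes. Relative to the median of its own part of the ranking, the median member changed by -0.13, with 56 of 78 genes below that median and 22 above. In the plot of change by signal strength the medians of all genes fall from -0.06 to -0.26 with 8 Gy serum over the 5 brightest parts, and the members' medians lie below them in each.

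**Figure D3:**
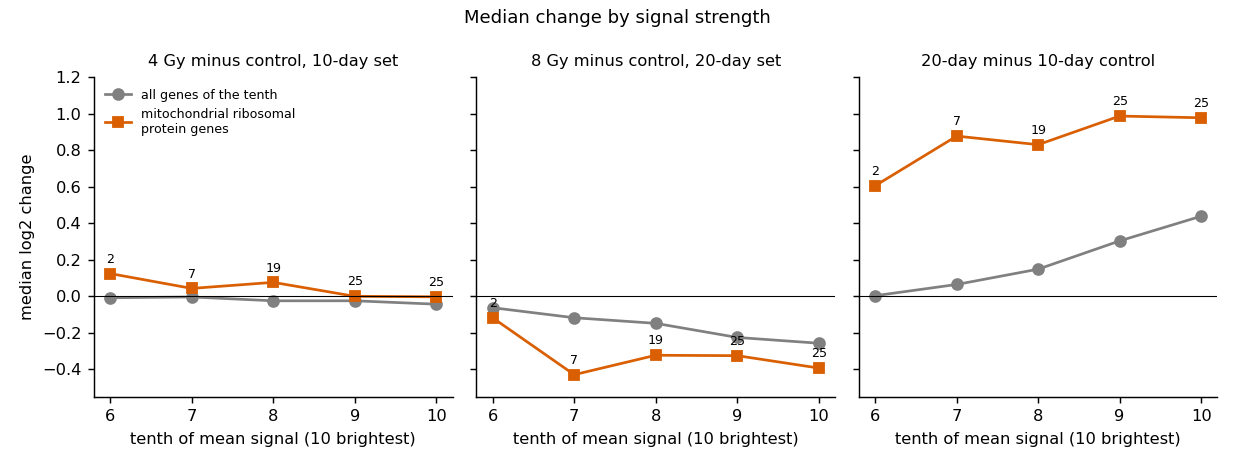
Median log2 change in each of the 5 brightest of 10 equal parts by mean signal, for all genes of the part (grey) and for the mitochondrial ribosomal protein genes (orange, with their number), in 3 comparisons. With 8 Gy serum the genes of the brightest part have a median of -0.26 and its 25 members one of -0.39, and between the control groups these are 0.44 and 0.98.

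With serum of mice given 4 Gy, 0 of the 78 genes passed the threshold in either direction (limma), where 4.5% of all genes were higher and 1.47% lower. These shares of all genes were unsteady: leaving out 1 array gave 199 to 1374 genes higher and 20 to 746 lower in place of 911 and 297, slide as a random block 0 and 1, and slide as a fixed block 1 and 19. At an unadjusted p under 0.05 there were 7 members (8.97%), against 22.1% of all genes. The median change was 0.02 with a range from -0.26 to 0.35, and that of all genes was 0.00. In 3 members all irradiated arrays lay above all controls and in 0 below, against 4.28% and 3.61% of all genes. Mrpl47 had the smallest p. It read -0.12, -0.15, -0.14, -0.14 and -0.15 with control serum and 0.14, -0.03, 0.02, 0.18 and 0.09 with 4 Gy serum, a change of 0.22 (SE 0.07, limma adjusted p = 0.0750). Its groups did not overlap, as in Mrpl16 and Mrpl17 (both named after their values were seen). It passed the threshold in a fit of the 10-day groups alone (limma adjusted p = 0.0298). In that fit 3 of the 78 members were higher and 0 lower, against 1646 and 929 of all 20226 genes. Mrpl47 passed as well under quantile normalization, cyclic loess and normexp, in the deposited values and without 4 Gy array 2.

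Next by p came Mrpl53 (-0.26, SE 0.09), Mrpl17 (0.24, SE 0.10), Mrpl21 (0.21, SE 0.09) and Mrps25 (-0.18, SE 0.08), with limma adjusted p from 0.091 to 0.189. Leaving out a single array brought Mrpl53 (control array 5 or 4 Gy array 1), Mrps25 (4 Gy array 1) and Mrpl21 (4 Gy array 2) past the threshold. Several of these values split by slide within the 4 Gy group. Mrpl53, for example, read 4.28 and 4.07 on the slide it shares with a control array and 3.85, 3.90 and 3.93 on the other, against 4.06 to 4.38 with control serum. Mrpl17 read 2.87 and 2.86 on the shared slide and 3.09, 3.19 and 3.08 on the other, against 2.71 to 2.83. Only slide 2 holds both groups, with 1 control and 2 irradiated arrays. Within it the median difference of the members was 0.11, with 74 of 78 positive, and that of all genes 0.01. How many of all genes were positive there was not counted. The control is array 5, whose family median of -0.45 was the lowest of its group. The irradiated arrays are 4 Gy array 1 (-0.27), which stood apart from the other 4 Gy arrays, and array 2 (-0.41).

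The test of the difference between both responses (the change with 8 Gy serum minus that with 4 Gy serum) called 36 of the 78 genes lower and 0 higher, with a median of -0.38. For all genes these were 22% lower, 12.2% higher and a median of -0.11. Mrpl21 (-1.17, SE 0.13), Mrpl47 (-0.97, SE 0.10), Mrpl32 (-0.88, SE 0.10), Mrpl15 (-0.87, SE 0.21), Mrps21 (-0.86, SE 0.10) and Mrpl22 (-0.85, SE 0.08) led it. They were followed by Mrps10 (-0.78, SE 0.14) and Mrps14 (-0.76, SE 0.08), both of the small subunit's head. Among the stalk proteins Mrpl12 passed (-0.42, SE 0.15, limma adjusted p = 0.0357) and Mrpl11 did not (-0.25, SE 0.14, limma adjusted p = 0.167). The call of Mrpl12 was lost under quantile normalization (-0.19), cyclic loess (-0.21) and normexp (0.02), with no filter on dim probes, with slide as a random block and without slide 4 (-0.17), 6 or 7. It was also lost without 10-day control array 2 or 5, 4 Gy array 1 or 4, 20-day control array 1 or 2, or 8 Gy array 1, 4 or 5 (limma adjusted p 0.0519 to 0.0675). Mrpl11 passed without 20-day control array 1 (-0.36) or slide 4 (-0.26). The test shares the control groups with the other comparisons, and dose, day and set cannot be told apart in it. Leaving out 1 of the 4 slides of the 20-day set gave between 28 and 40 members lower, and between 3270 and 5063 of all genes.

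The control groups of both sets, which differ in no dose, had a larger median difference over the family than either irradiated group had from its own controls. Set, scan day and any difference between the cells used cannot be told apart here. Of the 78 genes 70 were higher in the 20-day than in the 10-day controls and 0 lower (36.9% and 29.4% of all genes). The median was 0.94, with quartiles at 0.60 and 1.19, against a median of 0.07 for all genes. In 58 genes all 20-day control arrays lay above all 10-day control arrays and in 0 below, against 28.2% and 21.2% of all genes. In the 3 brightest parts of the ranking 89.9% of members were higher, against 52.1% of genes, and relative to its own part the median member differed by 0.59, with 71 of 78 above.

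Mrpl21 read 1.15, 1.04, 1.13, 1.23 and 1.12 in the 10-day controls, below its 20-day values above by 1.80 (SE 0.09, limma adjusted p = 2.47e-12), or 3.49-fold. Mrpl22 read 1.15, 1.14, 1.14, 1.16 and 1.10 there, and differed by 1.73 (SE 0.06, limma adjusted p = 1.56e-14). Both lay far apart from the 20-day controls. Mrpl32 differed by 1.75 (SE 0.07), Mrps21 by 1.74 (SE 0.07) and Mrpl47 by 1.70 (SE 0.07). Mrps28 differed by 1.57 (SE 0.12), Mrpl1, of the stalk by which spent tRNA leaves, by 1.54 (SE 0.11) and Mrps18c by 1.52 (SE 0.06). Mrps18b (1.10, SE 0.12), Mrpl12 (1.10, SE 0.10), Mrps12 (1.02, SE 0.08), Mrpl11 (1.00, SE 0.10), Mrpl45 (1.11, SE 0.13) and Mrpl58 (1.31, SE 0.11) were higher too, and Mrpl44 passed narrowly (0.28, SE 0.12, limma adjusted p = 0.0475) and not under quantile normalization (0.12) or cyclic loess (0.10), nor without slide 5 (0.14). It also missed the threshold without any 1 of the 5 arrays of the 10-day controls or array 3, 4 or 5 of the 20-day controls (limma adjusted p 0.0579 to 0.132), with the mean of its probes (0.18), with no filter on dim probes, with slide as a random block and in the fit of only the groups compared.

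Not past the threshold were Mrps30 (-0.40), Mrpl10 (-0.19), Mrpl37 (-0.17), Mrpl40 (-0.10), Mrpl4 (0.02), Mrps27 (0.11), Mrps26 (0.31) and Mrps18a (0.45). Under quantile normalization 58 members were higher and 3 lower, where 6779 and 6336 of all genes were. Mrps30, Mrpl10 and Mrpl37 were lower there, with limma adjusted p of 0.00812, 0.00738 and 0.0120. All 3 were called lower under cyclic loess too, and each without certain arrays or slides: Mrps30 without 20-day control array 1 or 4 or slide 5 (and under normexp), Mrpl10 without 20-day control array 3 or slide 4, and Mrpl37 without 10-day control array 5, 20-day control array 2 or slide 4. Mrps18a was called higher without 20-day control array 3 (0.71) or slide 4 (1.41), and Mrps27 under array median scaling (0.24).

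Across the 4 groups the 20-day control mean was the highest in 66 of 78 genes. The 8 Gy mean lay between it and both 10-day means in 64, and in 3 (Mrpl10, Mrps2 and Mrps30) it was below both 10-day means. These orders of means were not counted over all genes. All genes of the brightest part had medians of 0.44 between the control groups and -0.26 with 8 Gy serum. In 62 genes all 8 Gy arrays lay above all 10 arrays of the 10-day set, as they did in 22.3% of all genes, and in 54 all 20-day control arrays did, as in 24.7%. The level with 8 Gy serum thus stayed above that of the 10-day set in most members. Mrps12 shows the order, at a mean of 1.52 ± 0.06 with 10-day control serum, 1.61 ± 0.10 with 4 Gy serum, 2.54 ± 0.14 with 20-day control serum and 2.12 ± 0.12 with 8 Gy serum (SD, n = 5). In it the 10-day groups overlap and the others do not.

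The macrophage markers, all 13 higher in the 20-day controls, counted 0 higher and 4 lower with 8 Gy serum, where 17.3% and 28.8% of all genes were. Adgre1 fell by 0.78 (SE 0.15), Tyrobp by 0.72 (SE 0.13) and Ptprc by 0.61 (SE 0.11), each by more than the median member, and the median of the 13 was -0.05. Of 5 adipocyte markers 4 were tested, and all 4 were higher in the 20-day controls, where their summed signal was 33.3 to 76.6 times the percentile, against 4.05 to 6.73 times in the 10-day controls, 4.57 to 8.09 with 4 Gy serum and 32.5 to 39.4 with 8 Gy serum. With 8 Gy serum 2 of them were lower. Of the 14 fibroblast markers 2 were higher and 9 lower in the 20-day controls, and 4 were higher and 1 lower with 8 Gy serum. Their sum was 1142 to 1340 times the percentile on the 10-day arrays and 789 to 953 times on the 20-day arrays. Of 4 endothelial markers tested 3 were lower with 8 Gy serum and 3 lower between the control groups, and of 4 neural markers 2 and 3. Of 3 muscle markers 1 was lower and 1 higher with 8 Gy serum and all 3 were lower between the control groups, and of 5 epithelial markers 0 were called with 8 Gy serum and 2 were higher and 1 lower between the control groups. The part of these markers in the result was not tested. In such bulk RNA fewer cells of a type and less RNA per cell cannot be told apart. Lars2, the mitochondrial leucyl-tRNA synthetase, and Rn28s1, a 28S ribosomal RNA, were chosen after their values were seen. Lars2 read 9.03 ± 0.09, 8.97 ± 0.10, 5.02 ± 0.34 and 8.94 ± 0.10 (SD, n = 5, in the order above) and Rn28s1 read 0.32 ± 0.24, 0.75 ± 0.57, -4.57 ± 0.92 and 0.25 ± 0.36. Both were lower on the 20-day control arrays, on which the 8 Gy, difference and control-group results rest, than on the other 15, and their part in those results was not tested.

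**Figure D4:**
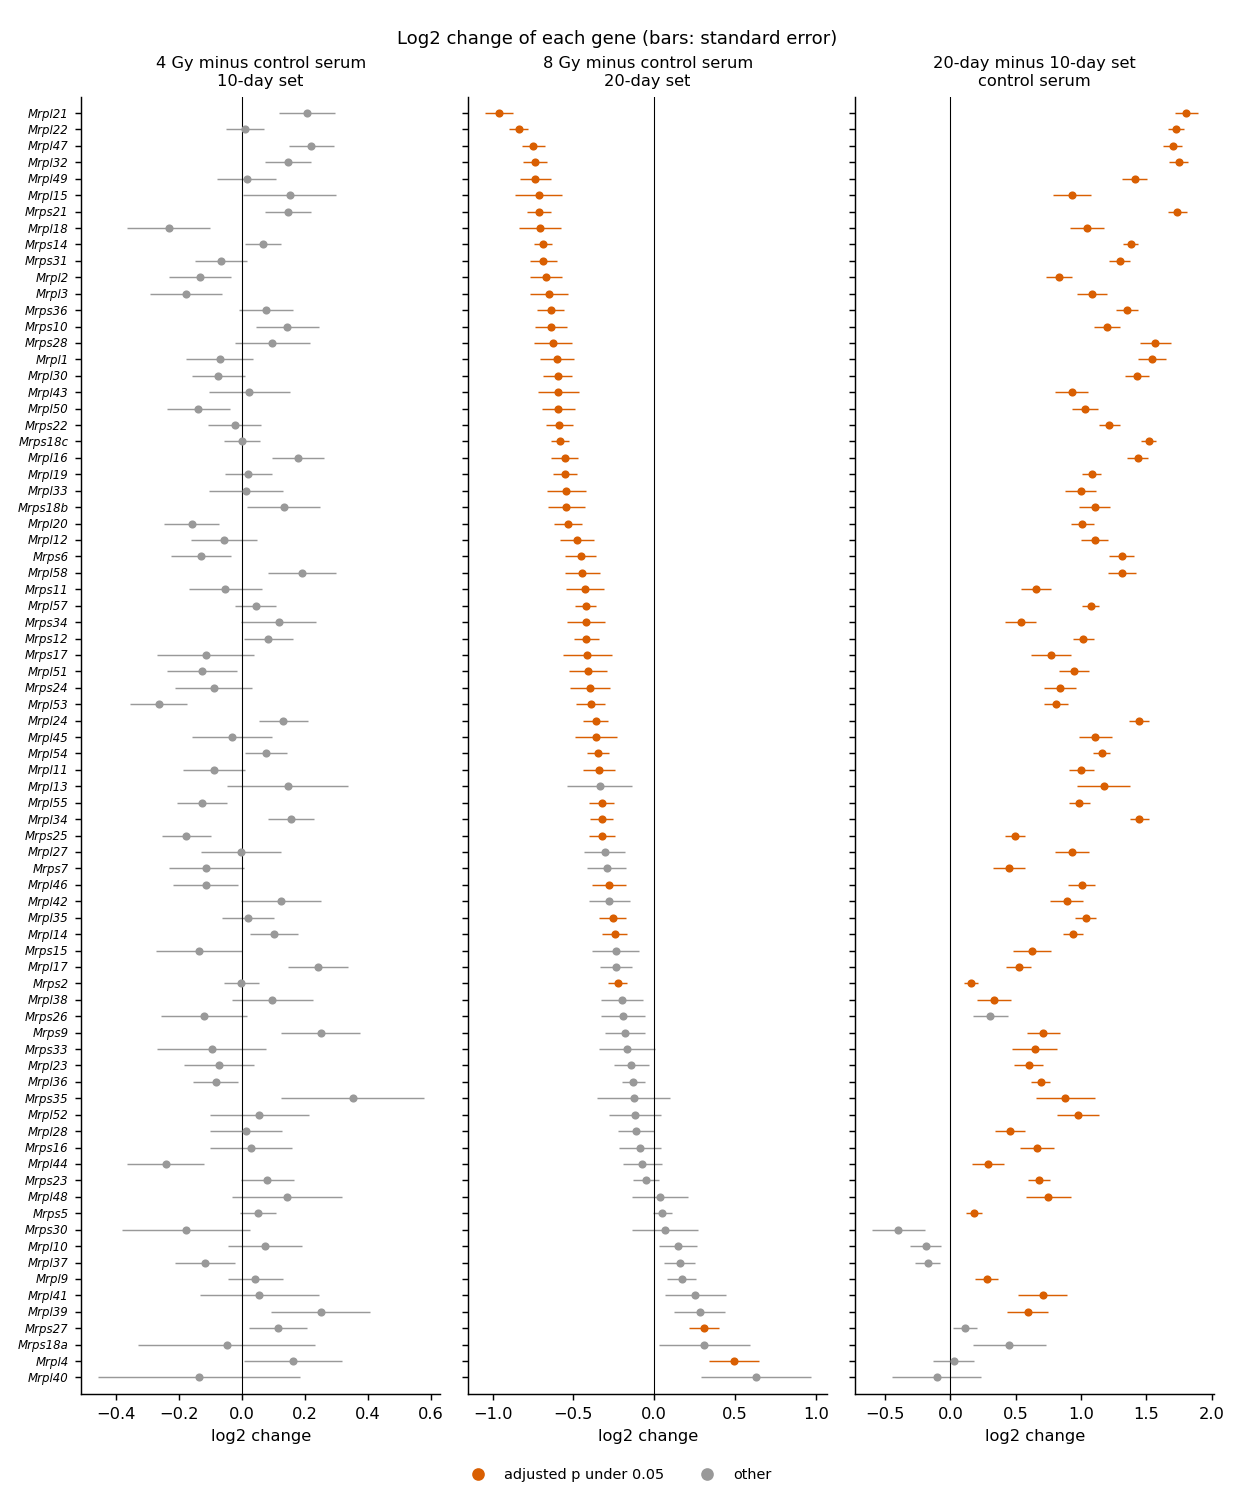
Log2 change and standard error (limma) of each of the 78 genes in 3 comparisons, ordered by the change with 8 Gy serum, with orange for an adjusted p under 0.05; the axes differ between panels. No gene is orange with 4 Gy serum, 48 are orange below 0 and 2 above with 8 Gy serum, and 70 are orange above 0 between the control groups.

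Other genes of mitochondrial protein synthesis follow by role, and their counts stand beside the 28.8% of all genes that were lower and the 17.3% that were higher with 8 Gy serum. Of 22 assembly factors, which build the ribosome but are no part of it, 5 were lower and 4 higher with 8 Gy serum, with a median of -0.06. Ddx28, a helicase of large-subunit assembly, rose by 0.84 (SE 0.14), and Rpusd4, a pseudouridine synthase, fell by 0.43 (SE 0.08). Of 15 translation factors 7 were lower and 2 higher (median -0.17). The elongation factor Tsfm fell by 0.85 (SE 0.13), and the initiation factor Mtif3 rose by 0.79 (SE 0.13). Of 9 factors for mitochondrial DNA and its transcription 3 were lower and 1 higher, with Tfb2m, which opens the promoters of mitochondrial DNA, falling by 0.77 (SE 0.10) and the helicase Twnk rising by 0.74 (SE 0.15).

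Of 15 genes of protein import, the route by which mitoribosomal proteins enter, 8 were lower and 1 higher. The channel protein Timm23 fell by 0.64 (SE 0.07), and Tomm40, the pore of the outer membrane, rose by 0.50 (SE 0.08). Among 16 regulators of mitochondrial gene programs 6 were lower and 2 higher; Myc fell by 0.89 (SE 0.10) and the coactivator Ppargc1b rose by 0.71 (SE 0.09). The respiratory chain, many of whose subunits are assembled around products of the mitoribosome, counted 51 lower and 1 higher of 79 genes, with a median of -0.37. The cytosolic ribosome counted 30 lower and 4 higher of 74, with a median of -0.16, led by Rps19 (fell by 1.05, SE 0.11) and Rpl29 (fell by 0.87, SE 0.10). The mitochondrial members' own counts stand at 48 and 2 of 78 with a median of -0.35, and the differences between these lists were not tested.

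Between the control groups 71 of 79 respiratory chain genes were higher and 1 lower, at a median of 0.90, where 36.9% of all genes were higher and 29.4% lower. Of the cytosolic ribosomal proteins 52 of 74 were higher and 3 lower (0.59), of the assembly factors 9 of 22 higher and 6 lower (0.10), and of the translation factors 9 of 15 higher and 2 lower (0.43). Factors for mitochondrial DNA counted 5 of 9 higher and 0 lower (0.39), protein import 9 of 15 and 0 (0.91) and the regulators 6 of 16 and 3 (0.07). All 5 mitoribosome proteins with other names were higher, at a median of 0.95. With 4 Gy serum 1 import gene, Tomm22, was higher, and 0 of the assembly factors, translation factors, mitochondrial DNA factors and regulators passed in either direction (limma). Of the respiratory chain genes 1 was higher and 0 lower, and of the cytosolic ribosomal proteins 1 was higher and 2 lower. Across all genes 4.5% were higher and 1.47% lower with 4 Gy serum.

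**Figure D5:**
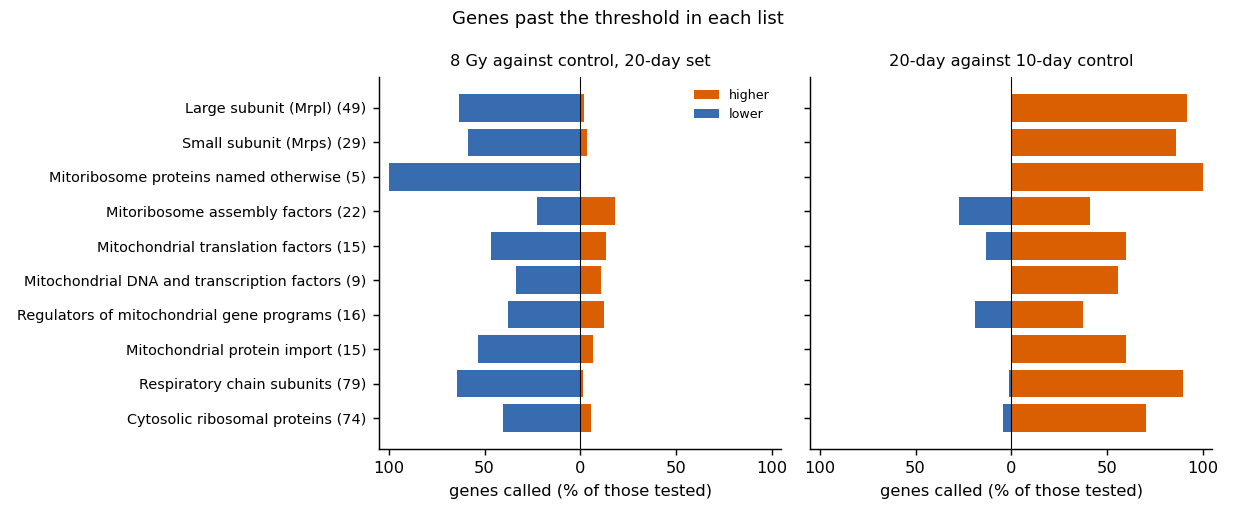
Share of the genes tested in each list (number in brackets, subunits by gene name) that was past the threshold, to the left for lower and to the right for higher, with 8 Gy serum (left) and between the control groups (right). The 5 mitoribosome proteins with other names are all lower on the left and all higher on the right, and assembly factors split, with 5 lower and 4 higher of 22 on the left.

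The genes that start back to back with a member did not all move with it. Apart from Mrpl46 and Mrps11, which start 42 bases apart and both fell (by 0.28, SE 0.10, and by 0.43, SE 0.12), 24 members had a partner outside the family, and 21 of these partners were tested. Beside members that fell with 8 Gy serum, 6 partners were lower, 4 higher and 4 not past the threshold. Of all genes 28.8% were lower and 17.3% higher. Ndufb5, a subunit of complex I that starts on the far side of the first stretch shown above, fell by 0.93 beside Mrpl47, and Psma2, a proteasome subunit beside Mrpl32, fell by 0.30. Helq, a DNA helicase gene beside Mrps18c, rose by 0.62 (adjusted p = 0.0263, limma), the opposite direction to its neighbour. Ighmbp2, which starts 32 bases from Mrpl21 on the other strand, rose by 0.59, and Twnk beside Mrpl43 rose by 0.74 while Mrpl43 fell by 0.59.

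Between the control groups, of the partners beside members that were higher, 8 were higher, 5 lower and 5 not past the threshold. Of all genes 36.9% were higher and 29.4% lower, and whether partners differ from all genes was not tested. Ndufb5 differed by 1.97 and Psma2 by 0.86, and Helq by -1.29 and Ighmbp2 by -1.24. A shared start region was thus found with changes of the same and of the opposite sign. The 78 genes themselves lie on 17 chromosomes, with 11 on chromosome 11, 8 on chromosome 17 and no more than 7 on any other.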

How the data were processed

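RNA of 20 MEF samples was measured on Agilent one-colour arrays, 1 per sample. The authors used Feature Extraction, version 10.5.1.1 per the file headers and 11.0 per the submitters' processing notes. The deposited processed intensity was background-subtracted and detrended array by array and not scaled across arrays, per the file headers. Deposited quality marks of another kind (0 or 1) give spots well above background, saturated or outlying. The authors' deposited log2 table, centred per probe within a set, served as an alternative; its correlation with the recomputed values was 0.990 on the lowest array, and its column medians lay between -0.05 and 0.07. Scale, centring and direction were found by that match and are not stated.

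Groups and replicate numbers came from the sample titles. Control spots and outlying spots (50 to 181 per array) were left out, spots of a probe averaged, and the log2 processed intensity minus the array's 75th percentile used. A probe was tested if every measured array (at least 4) of some group had it well above background, and a gene was read from its brightest such probe (20226 genes). Names came from RefSeq (GRCm38.p6): 24844 of 41174 probes matched 17178 genes, and others keep their array name. limma 3.58.1 (R 4.3.3) fitted 4 group means, with Benjamini-Hochberg adjustment over all genes and a threshold of 0.05; the steps were tested on simulated data. Arrays, 5 a group, limit the precision by their number.

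The members, gene lists, comparisons and the rule for named genes were chosen with earlier results of these data known. The rule names, per comparison, up to 8 members with the highest and 8 with the lowest change among those past the threshold (where fewer than 3 pass, the 5 with the smallest p), 13 fixed examples, and per list the 2 genes with the smallest p. Partners, markers and members outside this rule were named after their values were seen.

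Same-numbered arrays of both 10-day groups had correlations of their deviations from the group means of -0.055 to 0.179 (3 of 5 over 0.1). Arrays with other numbers gave -0.279 to 0.199 in that set, and whether the numbers pair arrays there was not tested. In the 20-day set same-numbered arrays had correlations of 0.140 to 0.407 (5 of 5 over 0.1). Arrays with other numbers correlated there at 0.083 to 0.365 on slides of the same place and at -0.272 to -0.146 on slides of different place. Pairing by number therefore cannot be told apart from the place of the slide. The main fit of group means used no pairs, and the numbers entered only an alternative fit, as the replicate block.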

Additional observations from a re-analysis of the deposited data

Results flagged for a closer look

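Among 120 groups of arrays looked at, 29 named members and the family median in 4 groups, 2 held an array far from the other 4, and chance alone sets an array apart in about 1 of 20. With 8 Gy serum array 4 read 4.52 for Mrpl11, and the others 4.69 to 4.75. With 4 Gy serum the family median of array 1 was -0.27, and those of the others -0.42 to -0.39; leaving out that array moved the family's median change from 0.02 to -0.01 and called 2 members lower, Mrpl53 (-0.33) and Mrps25 (-0.24).

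The responses to 8 Gy and 4 Gy serum differed, by the interaction term, in 36 members, all lower. Of the named members these were Mrpl21 (-1.17), Mrpl47 (-0.97), Mrpl32 (-0.88), Mrpl15 (-0.87), Mrps21 (-0.86), Mrpl22 (-0.85), Mrps10 (-0.78), Mrps14 (-0.76), Mrps18b (-0.68), Mrpl58 (-0.64), Mrps18c (-0.58), Mrps12 (-0.51) and Mrpl12 (-0.42). Mrps18b missed the threshold under normexp (-0.32, limma adjusted p 0.136) and with slide as a random block (limma adjusted p 0.0508), and Mrpl12 under many alternatives, among them normexp (0.02), quantile normalization (-0.19) and 9 of the 20 leave-one-out fits. Dose, day, set and slide change together in this difference and cannot be told apart.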

How the results depend on the processing

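With 8 Gy serum the median was -0.50 (55 lower, 0 higher) under array median scaling, -0.14 (31 lower, 5 higher) under quantile normalization, -0.16 (32 lower, 6 higher) under cyclic loess and -0.28 (39 lower) under normexp. For the difference of responses these gave -0.44, -0.19 (23 lower), -0.21 (1 higher) and -0.28 (1 higher), and for the control groups 1.07, 0.61 (3 lower), 0.58 (3 lower) and 0.82 (1 lower). Of all genes quantile normalization, cyclic loess and normexp called 5001, 4813 and 4870 lower and 3548, 3868 and 2961 higher with 8 Gy serum. For the difference they called 3575, 3639 and 3939 lower and 2691, 2893 and 1812 higher, and between controls 6336, 6446 and 4250 lower. With 4 Gy serum array median scaling gave a median of -0.056, each of quantile, loess and normexp 1 higher, slide as a fixed block 0.11, and both the fit of only the groups compared and the authors' deposited values 3 higher. With 8 Gy serum these last gave 1 higher, and slide as a random block 0. Of all genes 867, 867 and 909 were higher with 4 Gy serum under quantile, loess and normexp. In the fit of only the groups compared 1646 were, and 1636 in the deposited values. Array median scaling moved the median of all genes from -0.09 to -0.24 with 8 Gy serum and from 0.07 to 0.20 between controls (normexp: 0.22), and the split of all calls with 8 Gy serum from 3492 higher and 5819 lower to 2363 and 8087. Leaving out 1 array gave 0 to 2 higher and 0 to 2 lower with 4 Gy serum (median -0.0076 to 0.030), 2 to 4 higher and 46 to 51 lower with 8 Gy serum (-0.38 to -0.33), 0 to 1 higher and 34 to 41 lower for the difference (-0.40 to -0.34), and 68 to 70 higher and 0 to 1 lower between controls (0.92 to 0.99). Of all genes these fits called 3156 to 3721 higher and 5310 to 6035 lower with 8 Gy serum. For the difference they called 2171 to 2862 higher and 3936 to 4931 lower, and between controls 7122 to 7617 higher and 5642 to 6139 lower. Leaving out a slide of the 20-day set, chosen after seeing the data, gave with 8 Gy serum 0 (slide 4), 6 (slide 5) and 0 (slide 6, median -0.43) higher; for the difference 1 (slide 4) and 3 (slide 5) higher and a median of -0.45 (slide 6); between controls 2 lower without slide 4 or 5. Reversed were Mrps18a without slide 4 (-0.65 with 8 Gy serum, -0.60 for the difference) and Mrpl12 under normexp (0.019 for the difference, limma adjusted p 0.959). The cause was not tested. With the replicate block 48 were lower and 2 higher with 8 Gy serum and 36 lower for the difference, 0 and 0 with 4 Gy serum. Of all genes it called 5904 lower and 3630 higher with 8 Gy serum. For the difference it called 4507 lower and 2483 higher, and with 4 Gy serum 438 lower and 1204 higher. The replicate block was not fitted between sets. Of the named genes' alternatives 1968 kept their side of the threshold, 69 no longer passed it and 40 newly passed it.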
